A study of Helix lucorum with 35 samples.

Results

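In the PaG (parietal ganglia) of the snail Helix lucorum, 117 of 693041 assembled contigs took more of the library on the left side than on the right side in every snail compared and exceeded a set mean difference in both experiments. A contig is a stretch of transcript put together from the reads, and a transcript can be split over several of them. The set was chosen by these side differences themselves. Each expected count was divided by its column sum and multiplied by 1000000 to give the CPM, and s was taken as the log2 ratio of left to right CPM in 1 snail, with 0.5 added to both. A contig was kept where all 11 values of s were above 0 and their mean was at least 1.5 in E1 (6 snails) and also in E2 (5 snails). A limit of 200 contigs was set and was not reached. The excess on the left in these 22 libraries is therefore given as a description without a test, and the tests concern the activation and the level in E2 relative to E1. The level test uses left libraries that also entered the choice, so its calls describe the chosen set. The E2 libraries that the choice did not use are described by counts.

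The parietal ganglia of land snails are paired ganglia below the gut that control the mantle, the lung and the withdrawal of the body. Their largest cells include giant premotor interneurons, which drive withdrawal and whose responses are modulated by serotonin (5-HT). Such giant neurons can be recognized from animal to animal, and the left and right ganglia are not exact mirror images in their cells or nerves. RNA from a whole ganglion mixes all of its cells, whereas RNA from a piece around a few giant cells is weighted toward them.

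RNA was sequenced in 24 libraries from 13 adult snails, and 11 further samples, made for the assembly, were not used here. The study compared activated and control sides of the same nervous system to look for immediate early genes. In E1 (snails 1 to 6) each library came from 1 side of the PaG, and each snail gave both sides. In E2 (snails 7 to 13) each library came from a small medial piece that held mainly the bodies of the giant interneurons Pa2 and Pa3. Control sides were frozen before any drug was given. Activated sides had anisomycin, an inhibitor of protein synthesis, at 20 µM for 10 min, and then anisomycin together with caffeine (100 µM) and 5-HT at 5 µM for 20 to 25 min. The activation contrast therefore joins the stimulation with anisomycin, a longer incubation, and a change of saline. All ganglia had before been isolated under high-calcium, high-magnesium saline, used to suppress electrical activity, and kept cold. Activated sides were then washed with normal saline that held the drugs, whereas control sides were frozen before this wash. The left side was the activated one in snails 1, 2, 3, 8, 10, 11, and 13 and the control one in snails 4, 5, 6, and 9. Snail 12 gave only a left control library and snail 7 only a right activated library, so neither could enter the choice of contigs.

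By the methods, the left parts of E1 carried the visceral ganglion that adheres to them, whereas a figure legend states that this ganglion was not used. Side and this tissue cannot be told apart in E1. The E2 pieces were cut by hand, so they may hold other cells than Pa2 and Pa3. No contig is paired with a gene in the sources used here, so the 117 contigs are given by number, without function or sequence, and the tissue could not be checked against marker genes. In bulk libraries, fewer cells of a type and less RNA per cell cannot be told apart.

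The libraries held totals of 926483 to 35225724 counts, and the shallowest was the right library of snail 9 in E2, where 1 count equals 1.08 CPM. The 95% exact binomial intervals of the shares given below were at most 0.0473 percentage points wide and cover counting error only. In E1 the lowest share of counts on the 117 contigs among the left libraries was 1.68%, the median 1.93%, and the highest 2.65% (mean 2.03% ± 0.369, SD, n = 6). The right libraries of E1 held between 0.194% and 0.281% (mean 0.241% ± 0.0370, SD, n = 6), so both sides formed narrow bands that did not overlap. In E2 the lowest left share was 9.16%, the median 13.9%, and the highest 15.7% (mean 12.7% ± 2.86, SD, n = 6). The right libraries of E2 had a median of 0.149% and ranged from 0.0895% to 0.620% (mean 0.286% ± 0.243, SD, n = 6). Of these 6, those of snail 7 (0.620%) and snail 10 (0.575%) stood above the other 4, which reached 0.153% at most.

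**Figure D1:**
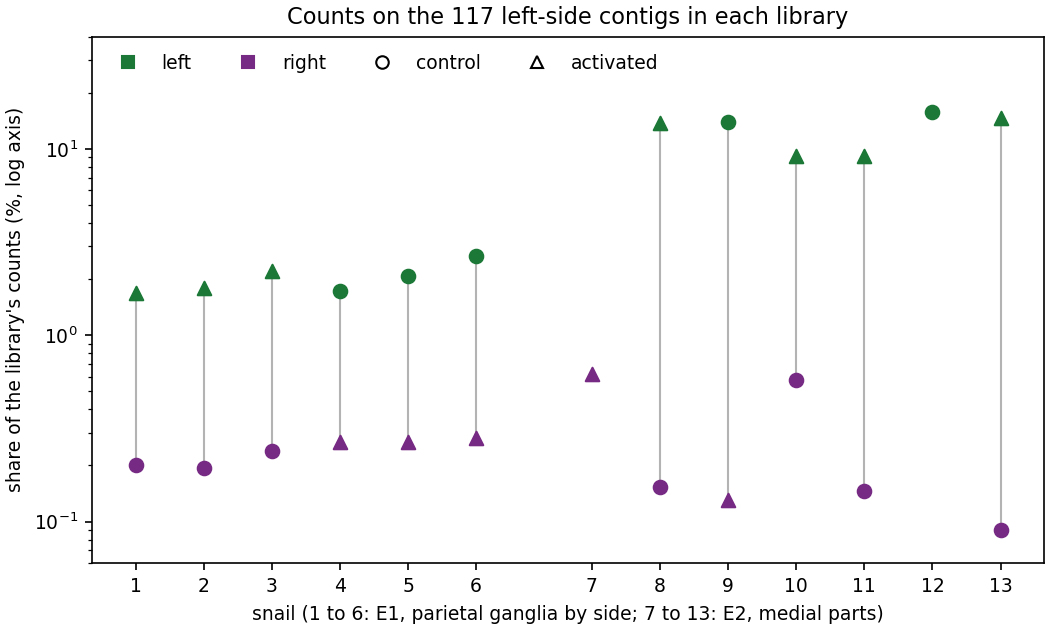
Share of each library's counts (percent, log axis) that fell on the 117 contigs, by snail, with left libraries in green, right libraries in purple, control libraries as circles, activated libraries as triangles, and a line joining the sides of 1 snail. Every left point lies above every right point, the left points of E2 (9.16% to 15.7%) lie above those of E1 (1.68% to 2.65%), and the right points of snails 7 and 10 lie above the other 4 of E2.

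Within a snail, the share on the left was between 6.48 and 9.44 times that on the right in E1. The E2 ratios were 15.9 in snail 10, 62.8 in snail 11, 90.3 in snail 8, 107 in snail 9, and 163 in snail 13. Snail 10, with the smallest ratio, had a high right share and the same left share as snail 11 to 3 digits (9.16%). The median s over the 117 contigs lay between 2.52 and 3.02 in the 6 snails of E1 and between 4.08 and 5.98 in the 5 snails of E2. Over all contigs with a total count above 10 in the experiment, the median lay between -0.12 and 0.22. Since the rule required an excess in every snail, its presence with either side activated was fixed by the choice, and only its size is described. In E1 the ratio of shares was 8.40 to 9.32 in the 3 snails with an activated left side and 6.48 to 9.44 in the 3 with a control left side. In E2 only snail 9 had a control left side, and its ratio lay inside the range of the 4 others.

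**Figure D2:**
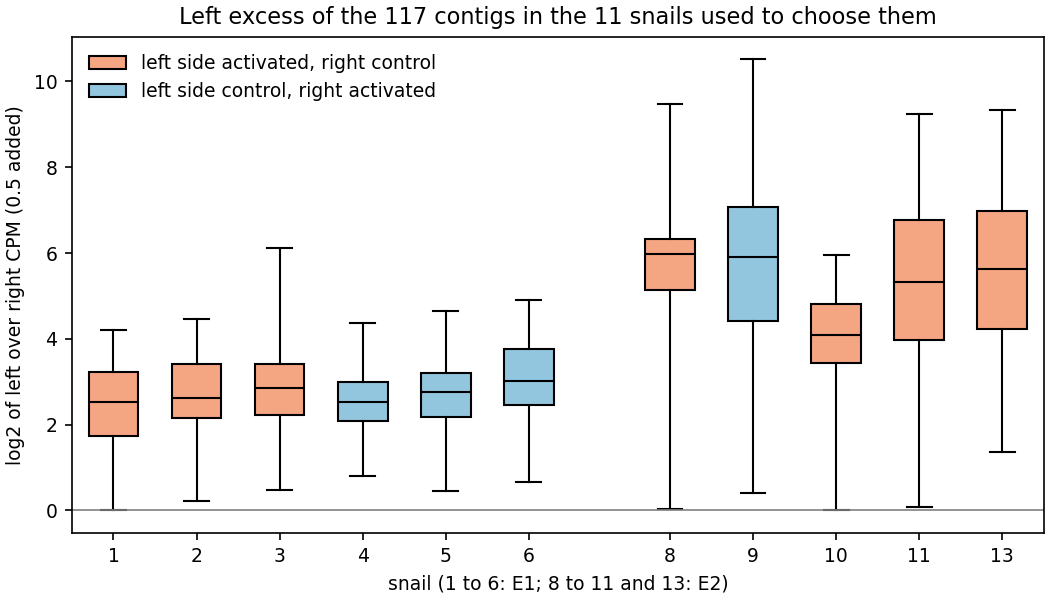
The log2 ratio of left to right CPM (0.5 added to both) of the 117 contigs in each of the 11 snails used to choose them, with boxes from the lower to the upper quartile, a line at the median, and whiskers from the lowest to the highest contig, colored by which side was activated. All values are above 0 by the choice of the contigs, and the medians are 2.52 to 3.02 in E1 and 4.08 to 5.98 in E2.

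The rule in E1 alone (0.0627% of 387774 contigs with a total count above 10) was met by 243 contigs and that in E2 alone (0.129% of 317414 contigs) by 410, of which 117 met both. The same rule turned to the right side was met by 206 contigs in E1, by 201 in E2, and by 13 in both. Without the limit on the mean, the sides were nearly balanced, with all 11 values of s above 0 in 296 contigs and below 0 in 277. All 117 contigs had a total count above 10 in both experiments. Just inside the threshold were contig 107801, with a smaller mean s of 1.55, and contig 1402296, with 1.53 and a lowest s of 0.09 in 1 snail. Just outside were contig 870419, with 1.49, and contig 1843662, with 1.47.

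Beyond the pairs, every left library lay above every right library of the experiment in 100 of the 117 contigs in E1, against 0.132% of all contigs with a total count above 10. In E2 this held for 93 of them, against 0.168% of all contigs, and 80 had no overlap in both experiments. These counts follow in large part from the rule and are not read as a result. No contig was at 0 in all right libraries of an experiment. In single right libraries, 4 to 22 contigs were at 0 in E1 and 7 to 58 in E2, the 58 in the shallow library of snail 9. On the left, 1 contig was at 0 in 1 library (snail 12). Most contigs thus had low counts on the right rather than none, and 113 of the 117 had more than 3 counts over the right libraries in each experiment. The mean right CPM was under 1 in 53 contigs in E1 and in 54 in E2. Whether such low counts are expression on the right or reads split from similar contigs was not tested.

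Contig 1869180 had the largest smaller mean s of the set, 4.23 in E1 and 6.86 in E2. On the left of E1 its lowest, median, and highest CPM were 524, 778, and 943, and on the right 20.6, 41.9, and 65.4. In E2 these were 2628, 4320, and 7193 on the left and 16.1, 48.3, and 79.4 on the right. The lowest left value was 8.00 times the highest right value in E1 and 33.1 times in E2, so no library of either side came near the other.

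Next in this order came contigs 287118 (mean s 4.22 in E1 and 6.71 in E2), 98607 (4.06 and 6.94), 90238 (4.04 and 6.63), 1079449 (4.02 and 6.54), and 249998 (3.99 and 7.49). Contig 98607 had a lowest, median, and highest CPM of 65.7, 113, and 174 on the left and 2.72, 6.96, and 12.0 on the right of E1. In E2 it had 537, 745, and 1057 on the left and 2.95, 4.92, and 14.9 on the right. Contig 249998 had 112, 198, and 262 CPM on the left and 4.89, 13.2, and 21.2 on the right of E1, and 409, 814, and 2692 against 0.878, 5.20, and 31.4 in E2. None of these contigs had overlapping sides in either experiment. In contigs 1869180, 287118, 90238, 1079449, and 249998 the right value of snail 8 was the highest of E2, as was its left value. In contig 98607 snail 8 was the highest on the left of E2 and snail 10 on the right.

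Few contigs carried most of the counts. The CPM is a share of the library and is not per length, since contig lengths were not given, so it ranks contigs by reads and not by transcript number. On the left, the 2 contigs with the most counts held 38.6% of all counts of the set in E1 and 39.5% in E2, the top 6 held 66.1% and 64.4%, and the top 12 held 78.2% and 79.1%. Mean left CPM over the 117 contigs ran from 1.17 to 5158 in E1, with a median of 13.1, and from 5.88 to 30116 in E2, with a median of 74.0. A mean of 1000 CPM or more was reached by 3 contigs on the left in E1 and by 20 in E2, and by none on the right.

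Contig 613214 was the best ranked contig of the set in all 12 left libraries. Its rank by counts among all contigs was between 6 and 12 on the left in E1 and between 1 and 4 on the left in E2. Its lowest, median, and highest CPM were 3944, 4945, and 7337 on the left and 460, 628, and 847 on the right of E1. In E2 they were 20532, 29933, and 40660 on the left and 69.8, 153, and 1569 on the right, so the right libraries differed among themselves far more than the left ones. Contig 778838 ran alongside it, with 1864, 2568, and 4104 CPM on the left and 254, 356, and 451 on the right of E1. In E2 contig 778838 had 12224, 18259, and 33519 on the left and 51.7, 180, and 2017 on the right. Both contigs form a group of 2 by their course over the left libraries, as defined below.

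Contig 949259 had 2752, 3350, and 4200 CPM on the left and 190, 418, and 502 on the right of E1, and 14040, 14527, and 25402 against 32.2, 69.0, and 1246 in E2. Contig 1791995 followed it at 760, 905, and 1163 CPM on the left and 63.1, 111, and 140 on the right of E1, and at 4119, 4468, and 7250 against 12.0, 25.1, and 346 in E2. Contig 1419797 was more variable, with 154, 516, and 672 CPM on the left and 22.4, 70.9, and 107 on the right of E1. In E2 it had 906, 4235, and 8243 on the left and 66.7, 95.7, and 165 on the right. The sides of these 3 contigs did not overlap in either experiment, but in contig 1419797 the lowest left library of E1 was only 1.44 times the highest right one.

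The left library of snail 12 and the right library of snail 7 took no part in the choice, and they come from different animals, the left one a control and the right one activated. With 1 library a side, no test of the side was possible. The left library was higher in 114 of the 117 contigs (97.4%, with contigs of 1 transcript counted separately), against 36.4% of the 317414 contigs with a total count above 10 in E2. The median log2 ratio of left to right CPM (0.5 added) was 4.70 over the 117 contigs and -0.01 over all contigs. It was at least 1.5 in 112 of the 117 (95.7%), against 1.77% of all contigs. Among contigs with at least 1 CPM in either library, it was at least 1.5 in 111 of 116 of the set, against 7.19% of all. The excess on the left was thus also present in these libraries.

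The share of counts on the set was 15.7% in the left library of snail 12, the highest of all libraries. Its CPM lay within the range of the other 5 left libraries of E2 in 89 contigs and above the highest of the other 5 right libraries in 115. The right library of snail 7 lay below the lowest of the other 5 left libraries in 102 contigs, but above the highest of the other 5 right libraries in 31.

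In 3 contigs the left library of snail 12 was not above the right library of snail 7. Contig 1673721 had 3.30 CPM on the left of snail 12, where the other 5 left libraries had 214 to 1306 CPM, and 6.80 on the right of snail 7. Contig 471774 was at 0 on the left of snail 12, which allows up to 0.322 CPM, where the other 5 left libraries had 205 to 1187 CPM, and it had 2.43 on the right of snail 7. Among the left libraries of E2, only that of snail 12 was low in this pair of contigs, which also form a group of 2 by their course over the left libraries. Contig 649246 had 5.81 CPM on the left of snail 12, inside the range of the other 5 left libraries, and 24.6 on the right of snail 7, where the other 5 right libraries had 1.17 at most.

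The left libraries of E2 were next compared with those of E1, which asks how the level of the contigs differs between the medial piece with the giant interneurons and the whole side of the PaG. All of these libraries but that of snail 12 entered the choice, and how far the choice shaped the difference was not tested. With edgeR's quasi-likelihood test (adjusted p under 0.05 and a fold change above 2, with a term for the condition), 80 of the 117 contigs were higher in E2 and 0 were lower. Of the 369161 contigs tested, 0.319% were called higher and 0.806% lower, and the median log2 fold change was 3.18 over the set and -0.15 over all contigs. An unadjusted p below 0.05 was reached by 111 of the 117 (94.9%), all with a higher level in E2, against 11.5% of all contigs in either direction, and the fitted log2 fold change was above 0 in all 117. DESeq2 called 101 higher (1.27% of all contigs), and a fit to all 24 libraries with terms for side and condition called 61 (2.12%), both with 0 lower. On CPM without further scaling, the mean level in E2 was higher in 116 contigs, with a median ratio of 6.36 and a range from 0.757 to 16.1.

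Every left library of E2 lay above every left library of E1 in 63 of the 117 contigs, against 0.251% of the 369161 contigs tested, and 62 of these 63 were among the 80 called. On the right, the median log2 ratio of mean CPM in E2 to E1 was 0.01, and 60 of the 117 contigs were higher in E2. The share of counts on the set was 6.29 times as high in E2 as in E1 on the left and 1.18 times on the right, or 0.538 times on the right without snails 7 and 10. The experiments differ in snails, in the tissue cut, and, by the methods, in the visceral ganglion of the left parts of E1. These cannot be told apart. The left and right CPM of both experiments entered the choice, which favors a high left and a low right level in each, so the left and right ratios are set side by side without a comparison. For the same reason, the shares over all contigs, which were not chosen in this way, are no neutral reference for the calls in the set.

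**Figure D3:**
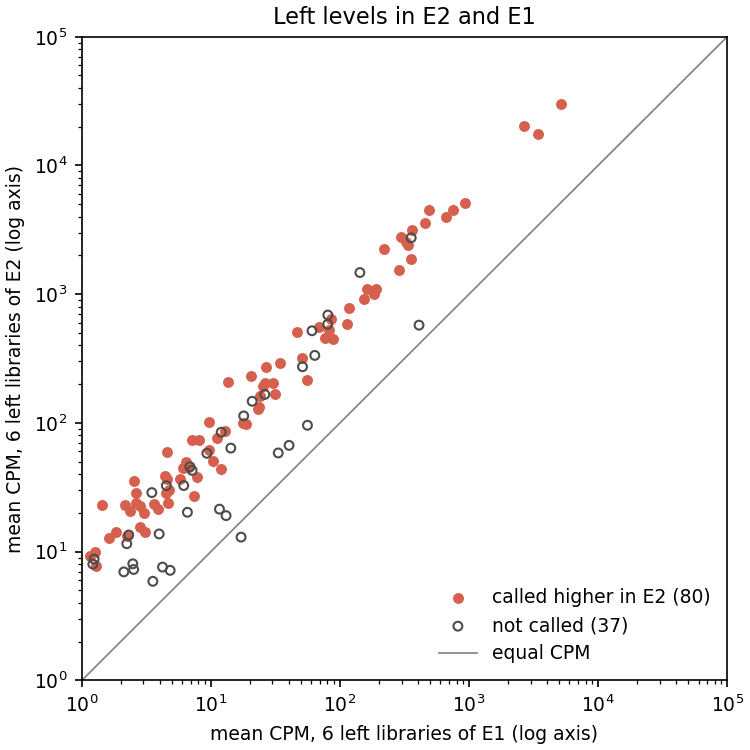
Mean CPM of each of the 117 contigs over the 6 left libraries of E1 (horizontal, log axis) and the 6 left libraries of E2 (vertical, log axis), with the 80 contigs called higher in E2 filled and the other 37 open. All contigs but 1 lie above the line of equal CPM, and the median ratio of E2 to E1 is 6.36.

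The largest fold change among the contigs called was that of contig 1932669, whose lowest, median, and highest CPM were 10.7, 13.4, and 16.0 on the left of E1 and 63.0, 84.6, and 557 on the left of E2. Its log2 fold change was 4.39 (edgeR adjusted p = 0.000906). Contig 833489 went from 3.34, 4.44, and 5.98 CPM in E1 to 36.4, 63.1, and 81.7 in E2, with a log2 fold change of 4.25 (edgeR adjusted p = 2.83e-05). Contig 966785 had 0.285, 1.47, and 2.68 CPM in E1 and 3.68, 12.2, and 82.9 in E2, with 4.23 (edgeR adjusted p = 0.0100). In each of these contigs the left libraries of E1 and E2 did not overlap. Of the most counted contigs, 613214 had a log2 fold change of 3.20 (edgeR adjusted p = 0.000985) and 778838 one of 3.61 (edgeR adjusted p = 0.000780).

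At the other end, contig 1402296 had a lowest, median, and highest CPM of 10.1, 15.1, and 32.3 on the left of E1 and 1.33, 6.86, and 48.5 on the left of E2. Its log2 fold change was 0.08 (edgeR adjusted p = 0.990), and -0.79 without the left library of snail 12. It was the only contig of the set with a lower mean CPM in E2. Contigs 1673721 and 471774, which were low in snail 12, had log2 fold changes of 2.88 and 3.07 that were not called (edgeR adjusted p = 0.183 and 0.288). Without that library they were 3.47 and 3.66 and were called (edgeR adjusted p = 0.0159 and 0.00978).

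The contigs were then grouped by their course over the 12 left libraries, with log2 levels centered within each experiment and contigs joined by average linkage at a mean correlation of at least 0.9. This gave 58 groups, of which 7 had 5 or more contigs and together held 50, while 38 contigs stood alone. Contigs of 1 transcript may fall into 1 group, but low counts or reads split between contigs can part them. A shared course does not show a shared transcript either, and no sequence was at hand to tell, so the groups do not count transcripts. Groups are given here by the contig with the most counts. The correlations come from 12 libraries and are a description.

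The group of contig 949259 held 6 contigs in almost fixed ratios. Contig 1791995 was at 0.284 ± 0.0148 times the CPM of contig 949259 (SD, 12 left libraries), and contig 92558 at 0.0870 ± 0.00415 times, while contig 949259 itself ranged 9.23-fold over these libraries. Together the 6 contigs took 0.399% to 0.604% of the counts on the left of E1 and 2.06% to 3.72% on the left of E2. On the right of E2 they took 0.180% in snail 7 and 0.0909% in snail 10 and no more than 0.0114% in the other 4, so this group also stood high in the right libraries with a high share of the whole set. All 6 were called higher in E2 than in E1 on the left, with log2 fold changes from 2.96 to 3.15.

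The largest group, led by contig 1744260, held 12 contigs, and none of them was called higher in E2. It took 0.0256% to 0.0859% of the counts on the left of E1 and 0.0106% to 0.195% on the left of E2, so that the libraries of the experiments overlapped. Their edgeR adjusted p in E2 against E1 was between 0.151 and 0.574, and their median log2 fold change was 1.60, against 3.34 for the 67 contigs outside the 7 larger groups, of which 17 were not called. Snails 9 (0.0219%) and 11 (0.0106%) were low on the left of E2, while the other 4 had 0.101% to 0.195%. The right shares were between 0.00937% and 0.0180% in E2, and snail 11, with 0.0106% on the left and 0.00937% on the right, had nearly the same share on both sides. The difference between groups was not tested.

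The group of contig 287118 held 7 contigs, among them 90238 and 1079449. Its share ran from 0.0222% to 0.0512% on the left of E1 and from 0.0792% in snail 10 to 0.563% in snail 8 on the left of E2, and all 7 were called higher in E2. The 7 contigs of the group of 1388538 followed a similar order on the left of E2, from 0.00745% in snail 10 to 0.0930% in snail 8, and all were called higher in E2 as well. In the group of 699488, with 7 contigs, 5 were called. Its share was 0.000464% on the left of snail 10 and 0.00742% to 0.0251% in the other 5 left libraries of E2.

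Of the 6 contigs in the group of 1605263, 4 were called higher in E2, and the left library of snail 8 held 0.0275% against 0.109% to 0.229% in the other 5. Of the 5 contigs in the group of 1690140, 1 was called. The lowest left library of E2 was not the same in all groups. It was that of snail 8 in the group of 1605263, that of snail 10 in those of 287118, 699488, and 1388538, and that of snail 11 in those of 1744260 and 1690140. In the group of 949259, snails 10 (2.07%), 11 (2.06%), and 13 (2.12%) were nearly tied.

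**Figure D4:**
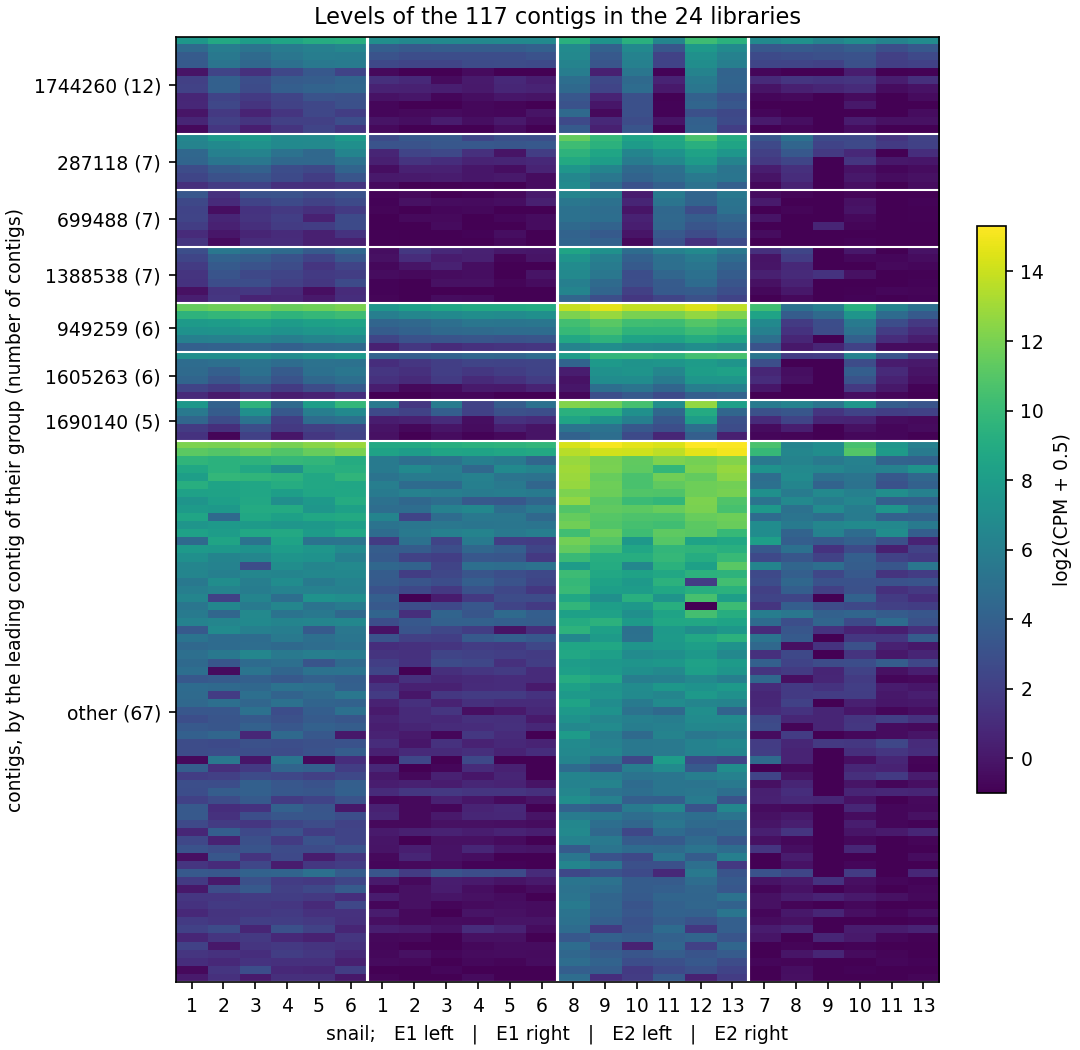
Level of each of the 117 contigs in each of the 24 libraries as log2(CPM + 0.5), with libraries in columns by experiment, side, and snail, and contigs in rows by the 7 groups of 5 or more contigs (named by their leading contig) and the 67 others. Left blocks are brighter than right blocks throughout, and single dark patches on the left of E2 mark snail 8 in the group of 1605263, snail 10 in that of 699488, snails 9 and 11 in that of 1744260, and snail 12 in contigs 1673721 and 471774.

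The left libraries spread more widely in E2 than in E1, which was not tested. The median over the contigs of the SD of log2(CPM + 0.5) on the left was 0.65 in E1 and 1.15 in E2 (n = 6 each). With nothing added to the CPM it was 0.72 in E1 and 1.16 in E2, the contig at 0 in snail 12 left out. The highest left library was less than 2 times the lowest in 29 contigs in E1 and in 10 in E2, and over 10 times in 24 and 52 contigs. In E2 snail 8 was the highest left library in 65 contigs and snail 10 the lowest in 54. In E1 snail 6 was the highest in 39 and snail 1 the lowest in 44. Neither these counts nor the SDs were set beside those of all contigs, so they are not read as particular to the set.

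The steadiest contigs on the left of E1 were 1359143, with a lowest, median, and highest CPM of 57.5, 69.5, and 76.9 (SD of log2(CPM + 0.5) 0.16), and 1201145, with 5.86, 7.45, and 7.94 (SD 0.17). In E2 they were 80539, with 77.3, 88.1, and 128 CPM (SD 0.32), and 456161, with 176, 216, and 326 (SD 0.33). Contig 456161 was higher in E2 than in E1 by 4.08 on the log2 scale (edgeR adjusted p = 0.000181).

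At the other extreme in E1, contig 649246 had 43.2 CPM on the left of snail 2 and 39.8 on the left of snail 4, and 0.156 to 1.67 in the other 4 left libraries (SD of log2 2.86). On the right it had 4.94 CPM in snail 2 and 5.29 in snail 4 and no more than 0.0866 in the others, so the same snails stood out on both sides. Contig 1690140 showed the reverse in these snails. It had 16.9 CPM on the left of snail 2 and 23.8 on the left of snail 4, against 199 to 893 in the other 4, and on the right 2.58 and 4.14 against 13.0 to 54.3.

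In E2 contig 1690140 had 125 CPM on the left of snail 11 and 291 on that of snail 13, against 1453 to 6424 in the other 4. The right values of these snails, 13.8 and 8.88 CPM, were also the lowest of E2. The log2 fold change of contig 1690140 from E1 to E2 was 3.45 and was not called (edgeR adjusted p = 0.154). The pair 1673721 and 471774 had the largest spread on the left of E2 (SD of log2 3.11 and 4.19), which came from snail 12. In these contigs snails 2 and 4 were the highest on the left of E1, with 126 and 122 CPM of contig 1673721 against 45.5 to 73.7 in the other 4.

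The right level was set beside the left level of the same snail. In E1, over the 64 contigs with a mean right CPM of at least 1, the median Spearman correlation over the 6 snails was 0.54, and it was above 0 in 60. All contigs above the same level had the same median of 0.54, with 80.7% above 0, and the libraries of 1 snail share the animal. In E2, over 61 contigs and 5 snails, the median was 0.10, with 35 above 0, and over all contigs it was 0.40, with 71.9% above 0. These values are a description of few snails.

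Last, the activation contrast of the study was read for the set. In E1, with sides balanced between activated and control samples, edgeR's exact test called 0 of the 117 contigs, while 0.0843% of all contigs were called higher and 0.00181% lower. None of the 117 had an unadjusted p below 0.05, the median log2 fold change was 0.03, and 64 were above 0 (38 with RLE size factors, where the median was -0.09). Each group held left and right libraries, so the side difference by which the contigs were chosen widens the spread within groups. Without a side term the test thus had little room to call them, and its 0 calls do not show that activation left them unchanged. DESeq2 also called 0, without a side term (0.131% of all contigs higher and 0.00181% lower) and with one (0.129% and 0.00129%). The quasi-likelihood test called 0 of the 117 with or without a side term, where it called 0 of all contigs, with a block for the snail (0.303% of all contigs higher and 0.0242% lower), and with the side term and the block (0.546% and 0.175%). In the last of these fits, 17 of the 117 (14.5%) had an unadjusted p below 0.05, against 4.07% of all contigs.

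The smallest p with a positive change in E1 was that of contig 1946627, with a log2 fold change of 0.72 (edgeR exact test, adjusted p = 1). With the side term and the block for the snail its adjusted p was 0.0352 in edgeR, but its log2 fold change of 0.63 was below the limit of 2-fold, and without the left activated library of snail 3 the exact test gave -0.02. The smallest p with a negative change was that of contig 923791, with -0.97 (edgeR exact test, adjusted p = 1).

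In E2 the exact test also called 0 of the 117, against 0.0239% of all contigs higher and 0.0113% lower, with 7 (5.98%) at an unadjusted p below 0.05, against 3.27% of all contigs. Here 4 of 6 activated but 2 of 6 control libraries came from the left, so the contrast takes up the side. As in E1, the side difference also widens the spread within groups where no side term is fitted. The median log2 fold change of the set was 0.82, with 109 contigs above 0, while the median over all contigs was -0.06. With a side term in edgeR's quasi-likelihood test the median was -0.02, 0 contigs were called, and 2 (1.71%) had an unadjusted p below 0.05, against 2.84% of all contigs. DESeq2 called 0 without the side term, with 7 at an unadjusted p below 0.05 (1.97% of all contigs) and 0.0539% of all contigs called higher and 0.0202% lower. With the side term it called 0, with 3 (2.56%) at an unadjusted p below 0.05 (2.05% of all contigs) and 0.0466% and 0.0309% of all contigs called.

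With a block for the snail and no side term, the quasi-likelihood test called 111 of the 117 higher in the activated samples of E2, against 0.297% of all contigs called higher and 0.163% lower, with a median log2 fold change of 5.51. In 4 of the 5 pairs that this fit compares, the activated side was the left one, so the contrast is close to the one by which the contigs were chosen, and nothing is read from it about activation. Only snail 9 had its right side activated in these pairs, so with the block and a side term it alone parts side from condition. Its right library was the shallowest of all, so the fit with both terms says little about activation. With the block and the side term 0 were called (0.0221% of all contigs higher and 0.0296% lower), with 10 (8.55%) at an unadjusted p below 0.05 against 4.38% of all contigs, and the median was -0.79, as it was -0.81 over all contigs. Nor was a call made with the newer quasi-likelihood estimate of edgeR and the block alone, where 111 contigs of the set and 4.35% of all contigs had an unadjusted p below 0.05.

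**Figure D5:**
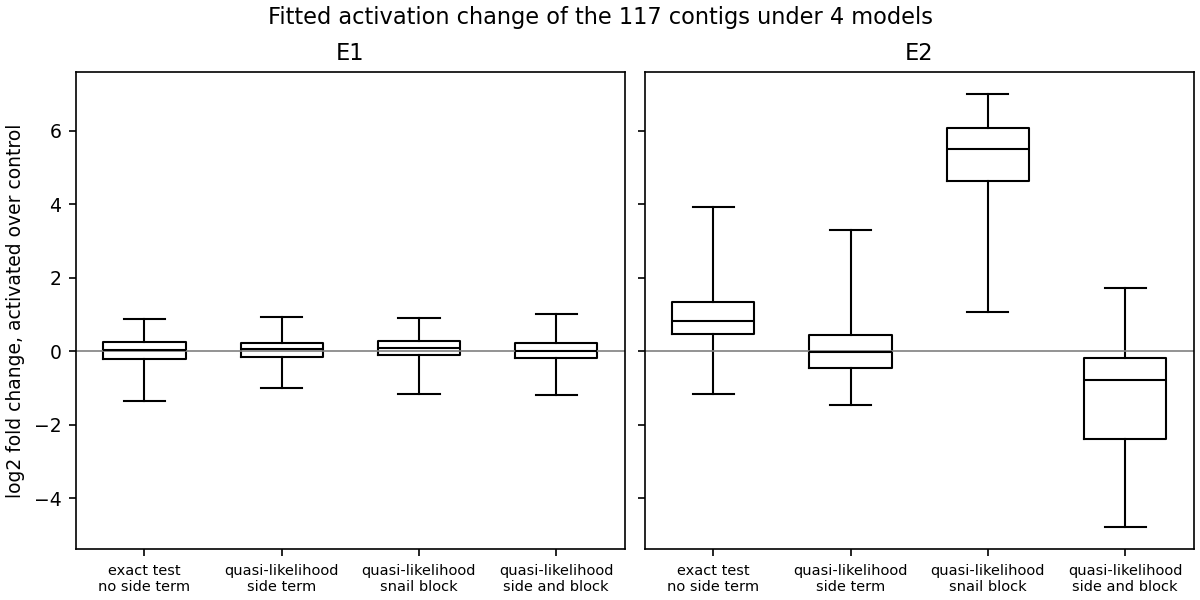
Fitted log2 fold change of activated over control samples for the 117 contigs in E1 and E2 under 4 models, with boxes from the lower to the upper quartile, a line at the median, and whiskers from the lowest to the highest contig. In E1 all medians are near 0, and in E2 the median is 0.82 without a side term, -0.02 with one, 5.51 with a block for the snail alone, and -0.79 with both.

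Contig 1200520 had the smallest p with a positive change in E2. Its lowest, median, and highest CPM were 2.57, 12.0, and 26.9 on the left and 0, 0.689, and 1.13 on the right. The log2 fold change was 3.20 (edgeR exact test, adjusted p = 0.316), and it was called without the right activated library of snail 9 (3.46, adjusted p = 0.0255). With a side term it was 1.21 (edgeR quasi-likelihood test, adjusted p = 1). Contig 1402296 had the smallest p with a negative change, -1.16 (edgeR exact test, adjusted p = 1), which was 0.73 without the left control library of snail 12. Contig 1673721, high on the left in all snails of E2 but snail 12, was called without the left control library of snail 9 (log2 fold change 5.94, edgeR exact test, adjusted p = 0.0334) and had 3.33 with all libraries (adjusted p = 1).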

How the data were processed

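The authors removed adapters with cutadapt 1.11, assembled 693041 contigs de novo with SOAPdenovo-Trans, mapped reads with bowtie 1.0.0, and deposited expected counts per contig from RSEM 1.2.18, neither normalized nor filtered, in 1 table per experiment. The methods name rRNA depletion, whereas the labels name poly A RNA. Reads from similar contigs are split by RSEM. The median contig of the 117 had an expected count that was not whole (tolerance 1e-06) in 83.3% of libraries. Where the mean count was 50 or more, 21.2% of the set and 23.4% of all contigs were not whole in all 24 libraries, so values can be uncertain between similar contigs. Each of the 24 columns bears the title of 1 sample, and 0 columns had no sample.

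CPM used column sums for the choice and the description. The tests used TMM scaling and the rounded expected counts of contigs whose total exceeded 10. Activation was tested with the exact test of edgeR 4.0.16, as in the study, and E2 against E1 on the left with its quasi-likelihood test, at an adjusted p (Benjamini-Hochberg, over all contigs) below 0.05 and a fold change above 2. No p-value was computed for the left-right difference of the 22 libraries. Alternatives were DESeq2 1.42.0, RLE scaling, filters on low counts, side and snail terms, and leaving out each library. The software was R 4.3.3 and Python 3.11.15. Some of the tests were also run on simulated counts. These held no side or snail effect and 1 fixed dispersion, so they do not check the tests for such effects.

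By the labels a snail number marks 1 animal, so the numbers pair the libraries. Deviations from group means correlated at 0.699 to 0.790 within snails of E1 (30204 contigs) and 0.373 to 0.742 within snails of E2 (20450 contigs). The exact test takes no block.

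Contigs were named by rule: the 6 with the largest smaller mean s, the 6 with the highest mean left CPM, the smallest activation p in each direction, up to 3 with the largest level change among those called in each direction, the 2 on each side of the threshold, up to 3 that were not higher in the left library of snail 12, and the 2 most and 2 least variable on the left in each experiment. Leaders of groups and contig 92558 were named after their values were seen. The 117 contigs, the rule, and the tests were chosen with earlier results of these data known. A count of 0 was given a floor of 3 counts in its library.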

Additional observations from a re-analysis of the deposited data

Results flagged for a closer look

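Of 76 sets of 6 libraries checked for a single library far from the others (Dixon's criterion at 95%), 8 had one. For independent sets of normally distributed values, chance would give about 1 in 20, or 3.8. The sets share libraries and contigs, and the values were not put on a log scale, so 3.8 is no firm reference for the 8. All 8 were high values, and 7 of them were in snail 8. On the right side of E2, snail 8 held 0.00727% of counts in the group of contig 287118 (the next highest library 0.00229%) and 0.00124% in the group of 1388538 (next 0.000411%). It had 33.2 CPM of contig 287118 (next 9.37), 11.0 CPM of contig 90238 (next 3.77), and 31.4 CPM of contig 249998 (next 10.6). On the left side of E2, snail 8 held 0.0930% of counts in the group of 1388538 (next 0.0368%) and had 2692 CPM of contig 249998 (next 1197). Contigs 287118 and 90238 belong to 1 group, so these values are not separate. In E1 the right library of snail 6 held 0.000191% of counts in the group of 699488 (next 8.84e-05%).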

How the results depend on the processing

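The choice of contigs gave 118 contigs with TMM-scaled libraries (115 shared), 147 with 0.1 and 97 with 1 added to the CPM, 144 and 94 with a mean s of at least 1 and 2, and 116 to 154 without 1 snail, the 154 without snail 11. The left library of snail 12 was above the right one of snail 7 in 114 of 117 with TMM scaling (40.4% of all contigs). Among contigs with at least 1 CPM in either library it was above in 113 of 116 (35.2% of all). For the level in E2 against E1 on the left, 61 (all 24 libraries) to 101 (DESeq2) of 117 were called higher, and 71 to 84 without 1 library.

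No contig was called for activation in E1 under any alternative, the blocked fits included. Fits without a side term had little room to call one, since the side difference widens the spread within groups. The median log2 fold change of the set without 1 library was -0.43 to 0.36 in E1 and 0.49 to 1.88 in E2. In E2 0 to 1 contigs were called without 1 library. The replicate block (the snail as a term) without a side term gave 111 calls and a median of 5.51 in E2, and 5.38 with the newer quasi-likelihood estimate, chosen after seeing the data, which called 0. With the side term the E2 median was -0.0239 (newer estimate -0.0105, DESeq2 0.0048), and with side and block -0.79 (newer estimate also -0.79). The cause of these shifts was not tested beyond the side term. The sign of the E2 median thus depended on the model. Depth limits the right side most, where up to 58 contigs were at 0 in a library.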
